A study of Mus musculus with 4 samples.

Results

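The 60 genes described here encode RNA polymerase I, its transcription factors and the proteins that process ribosomal RNA and assemble ribosomal subunits, together with 2 enzymes of nucleotide supply. They were chosen by name from a list of such genes, with earlier results of these data known. All 60 had a row among the 28141 gene symbols of the deposited table. The table came from RNA sequencing of polyadenylated RNA from leukaemia cells taken from the bone marrow of C57BL/6 mice, in 2 groups. The Ybx1 cKO group (a conditional knockout of Ybx1, written YBX1cKO in the labels) had 2 libraries and the WT group had 2 libraries. The labels call the cells of both groups LSCs, and the title of the series speaks of leukaemia stem cells and chronic myeloid leukaemia. The Cre driver, the deleted exons, the leukaemia-inducing construct and the age of the mice are not stated in the labels, and neither is whether each library came from its own animal. The p-values below therefore rest in part on the spread between these libraries, which may be technical.

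RNA polymerase I transcribes the ribosomal DNA repeats in the nucleolus into a long precursor RNA. Small nucleolar ribonucleoproteins (snoRNPs) then modify this precursor, and large assemblies of processing factors fold it, cut it and join it with ribosomal proteins into a small and a large subunit. Making ribosomes uses much of the transcription of growing cells, and many genes of this pathway are known targets of the transcription factor MYC.

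The deposited values were on a log scale and are given here as log2 levels, obtained with a scale factor of 0.693 that was inferred from the noise between replicates. If the values were plain log2, each log2 fold change would be 1.44 times as large and the p-values would not move. The files held no counts, so depth is unknown. After back-transformation the libraries summed to 12104617 and 12134026 in cKO, against 11157952 and 11074317 in WT. No further scaling was applied before the fit. Ybx1 itself, which encodes an RNA- and DNA-binding Y-box protein, had a log2 level of 8.19 and 8.13 in the cKO libraries, against 9.31 and 9.41 in the WT libraries (log2 fold change -1.20, SE 0.08, limma adjusted p = 1.08e-11). At the threshold used throughout (a limma adjusted p under 0.05), 37.4% of 15527 genes passed, 17.8% as lower and 19.5% as higher in cKO. All fold changes below are cKO over WT from limma's fit across those 15527 genes, with p-values adjusted by Benjamini-Hochberg over all of them. The SEs combine a gene's own replicates with a prior variance that follows the level and is fitted over all these genes. Imp4 had replicate SDs of 0.0018 in cKO and 0.0034 in WT, and a larger SE of 0.040. Dctpp1 had replicate SDs of 0.39 in cKO and 0.090 in WT, and an SE of 0.14. Where a library is left out below, its group keeps a single library, so the p-values of that fit lean further on this prior.

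Most of the 60 genes were lower in cKO, by modest amounts. Of the 60, 40 fell, 3 rose and 17 did not pass the test, so 66.7% fell and 5.0% rose, where 17.8% of all tested genes fell and 19.5% rose. The median log2 fold change was -0.36 over the 60 genes and 0.00 over all genes tested. The middle of the list lay between -0.57 and -0.08, and the whole list between -0.91 for Dctpp1 and 0.37 for Utp18. A fall of 0.5 or more on the log2 scale was seen for 18 of the 60 genes, and for 8.88% of all genes tested. Both cKO libraries lay below both WT libraries for 46 of the 60 genes and above them for 9, and the groups overlapped for 5. Over all genes tested these shares were 32.4% below and 32.7% above. The libraries of each group stood close together: relative to the WT mean of each gene, the median over the 60 genes was -0.36 in cKO replicate 1, -0.36 in cKO replicate 2, 0.01 in WT replicate 1 and -0.01 in WT replicate 2.

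**Figure D1:**
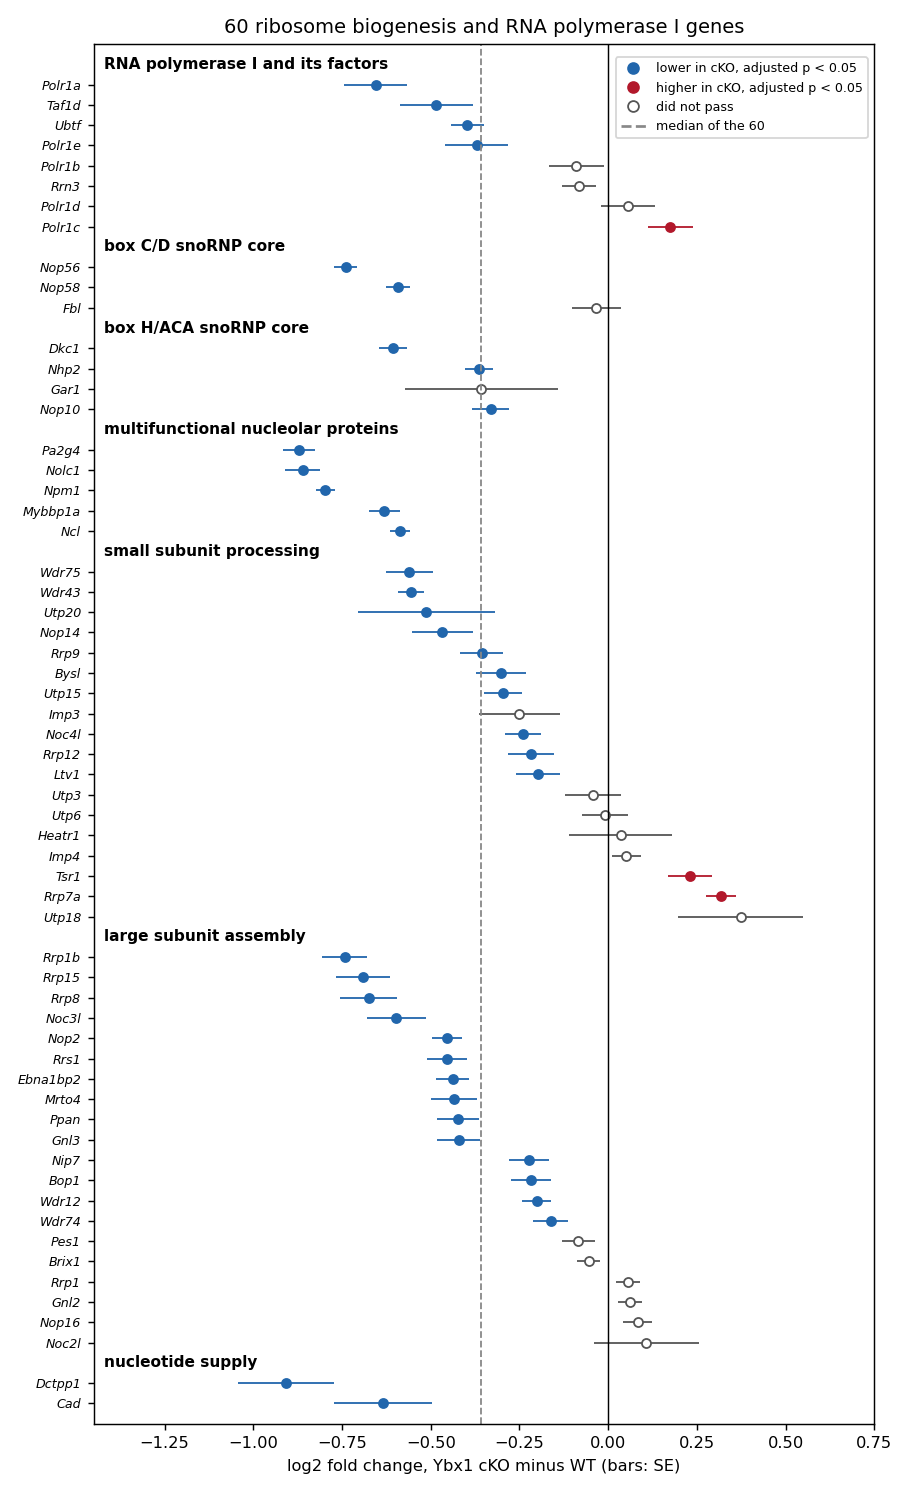
Log2 fold change (cKO minus WT) of each of the 60 genes, grouped by role, with bars of 1 SE; blue genes were lower and red genes higher in cKO at a limma adjusted p under 0.05, open circles did not pass, and the dashed line is the median of -0.36. All 5 multifunctional nucleolar genes and both nucleotide supply genes sit left of the median, and the 3 red genes are Polr1c, Tsr1 and Rrp7a.

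The 60 genes are well expressed, which makes a call easier to reach. Their median log2 level over the 4 libraries was 9.90, against 6.73 for all genes tested, and only 3 of them lay below that second value. Among the 9006 tested genes at or above the lowest mean level of the 60 (5.79), 26.8% fell and 30.0% rose. This set has only a floor and is not matched to the levels of the 60, of which 66.7% fell. Exon length was counted over all annotated exons of a gene together, so it can exceed the length of any single transcript. Adjusted for this length, Npm1 had the highest mean log2 level of the 60 per kilobase (11.41), followed by Nhp2 (11.22) and Brix1 (10.96). Utp20 had the lowest (2.86). When the prior variance was not allowed to follow the level, 17 of the 60 genes fell and 0 rose, beside 7.02% of all genes that fell and 7.58% that rose. At this setting, with unadjusted p under 0.05 in limma, 35 of the 60 were lower and 3 higher. The share of all tested genes under that unadjusted threshold was not counted, so these counts cannot be set against a background. The 17 falls that held were those of Polr1a, Nop56, Nop58, Dkc1, Npm1, Ncl, Pa2g4, Nolc1, Mybbp1a, Wdr43, Wdr75, Rrp1b, Ebna1bp2, Rrp15, Rrp8, Noc3l and Cad, so the other 23 falls and the 3 rises described below were lost.

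**Figure D2:**
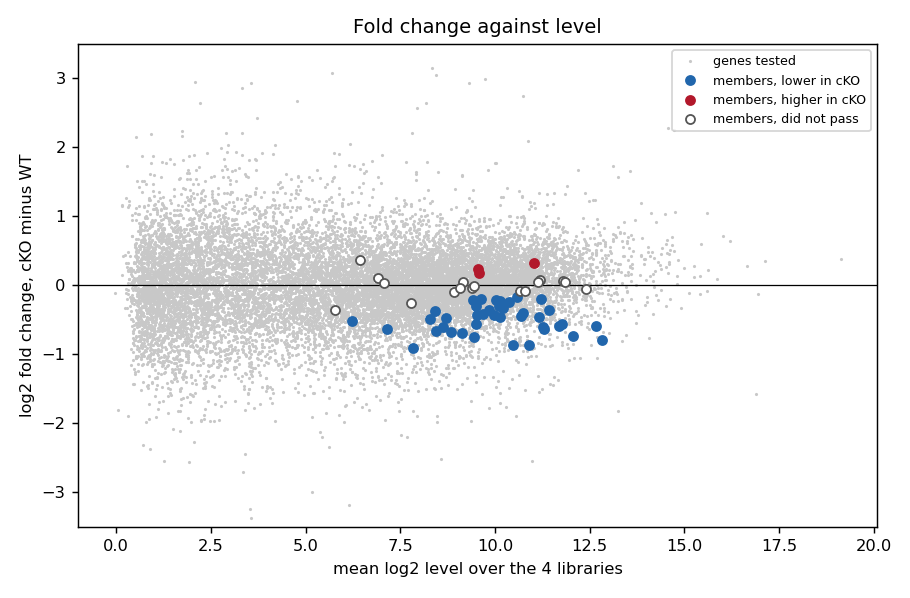
Log2 fold change (cKO minus WT) against the mean log2 level over the 4 libraries, for all 15527 tested genes (grey) and the 60 genes (large symbols, coloured by their test). The 60 genes lie between 5.79 and 12.83 on the level axis, and the 40 that fell form a band below 0 across that range.

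The cumulative curve of the 60 genes was shifted to the left of that of all genes over most of its course, but not at its far end. Of the 60 genes 49 had a log2 fold change below 0, against 49.8% of all genes tested. The lowest value among them was -0.91, whereas the lowest of all tested genes was -3.38. The list held many moderate falls. A list this short would rarely hold the largest fall of the whole table, so the difference between these lowest values says little about the list.

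**Figure D3:**
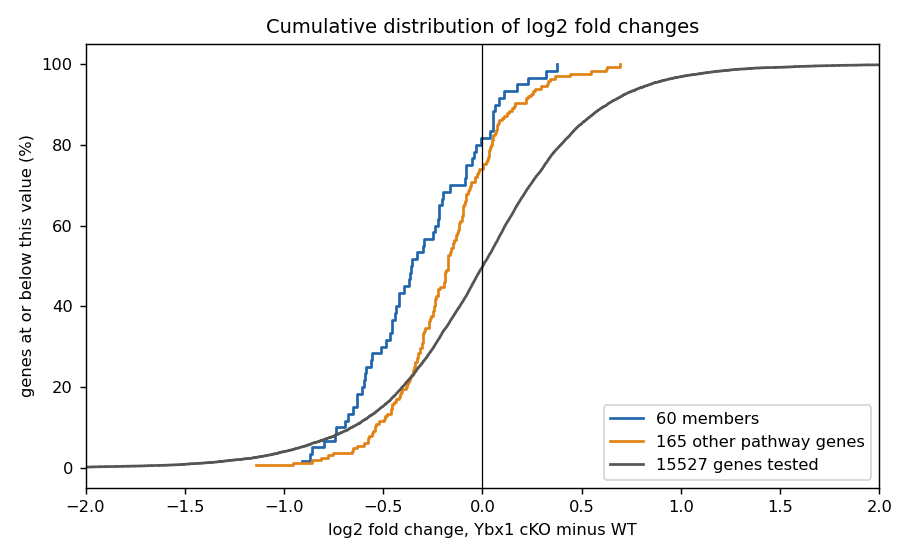
Percentage of genes at or below each log2 fold change (cKO minus WT) for the 60 genes, 165 other genes of the pathway and all 15527 genes tested; the axis stops at -2 and 2, and some of the tested genes lie beyond it. The curve of the 60 genes crosses 50% near -0.36, that of the other pathway genes near -0.17 and that of all genes near 0.00.

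The promoters of the 60 genes were also searched for short motifs, whatever the test result of each gene. RefSeq promoter windows (GRCm38.p6, 250 bases before to 50 after the annotated start) were found for 53 of the 60 genes, some with several starts. The E-box CACGTG, a palindrome bound by MYC and its partner MAX among other factors, lay in a window of 11 of these 53 genes (20.8%), beside 8.09% of the 27025 genes with a window. The CCAAT box (CCAAT, or ATTGG on the other strand) lay in a window of 18 of the 53 genes (34.0%), beside 41.1% of all genes with a window. The 250 bases before the start are shown for 4 genes that stand for both motifs and both directions, written 5′ to 3′ on the gene's strand, with the named motif in capitals. Nop2 (chr6:125131633-125131882, plus strand, E-box at position -60 from the start) and Rrp7a (chr15:83122802-83123051, minus strand, E-box at position -208) share the E-box, and the window of Rrp7a also holds a CCAAT box at position -93 that is not capitalised. Nop56 (chr2:130274162-130274411, plus strand, ATTGG at position -32) and Polr1a (chr6:71908803-71909052, plus strand, CCAAT at position -31) carry a CCAAT box in like places.
Nop2: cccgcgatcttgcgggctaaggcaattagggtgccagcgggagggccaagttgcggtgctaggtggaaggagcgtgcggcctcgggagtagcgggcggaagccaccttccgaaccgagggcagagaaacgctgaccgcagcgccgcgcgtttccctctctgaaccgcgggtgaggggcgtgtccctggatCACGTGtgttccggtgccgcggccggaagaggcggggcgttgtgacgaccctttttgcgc
Rrp7a: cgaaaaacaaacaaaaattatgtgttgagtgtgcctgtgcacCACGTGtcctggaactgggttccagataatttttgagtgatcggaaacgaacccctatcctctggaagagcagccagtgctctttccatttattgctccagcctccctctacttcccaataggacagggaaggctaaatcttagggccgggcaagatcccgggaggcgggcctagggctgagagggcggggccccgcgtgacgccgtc
Nop56: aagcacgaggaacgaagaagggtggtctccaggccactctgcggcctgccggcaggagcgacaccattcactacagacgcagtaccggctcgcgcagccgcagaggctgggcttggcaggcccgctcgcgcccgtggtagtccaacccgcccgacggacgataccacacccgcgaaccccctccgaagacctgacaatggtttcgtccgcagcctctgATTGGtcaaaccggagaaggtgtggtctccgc
Polr1a: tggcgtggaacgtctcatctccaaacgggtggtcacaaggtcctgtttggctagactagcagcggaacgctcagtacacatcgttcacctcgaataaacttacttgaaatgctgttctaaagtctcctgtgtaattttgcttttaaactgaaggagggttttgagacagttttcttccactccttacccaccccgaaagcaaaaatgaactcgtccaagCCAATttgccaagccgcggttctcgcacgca

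Falls outnumbered rises both with and without these letters. Of the 11 genes with an E-box, 5 fell (Nop2, Mybbp1a, Wdr43, Ltv1 and Utp20), 2 rose (Rrp7a and Tsr1) and 4 did not pass (Imp4, Pes1, Utp18 and Rrn3), with a median log2 fold change of -0.08. Of the 42 with a window and no E-box, 31 fell and 1 rose, with a median of -0.38. Of the 18 with a CCAAT box 14 fell and 1 rose (median -0.36), and of the 35 without 22 fell and 2 rose (median -0.37). A match is only a run of letters in these windows, and no binding was measured. Myc, whose product activates many of these genes, had a log2 level of 12.07 and 12.12 in the cKO libraries, against 12.95 and 12.95 in the WT libraries (log2 fold change -0.86, SE 0.03, limma adjusted p = 2.79e-17).

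RNA polymerase I and its factors fell in part. Of 8 genes 4 fell, 1 rose and 3 did not pass, with a median log2 fold change of -0.23. Polr1a, which encodes the largest subunit and part of the active site, had log2 levels of 8.06 and 8.16 in cKO, against 8.75 and 8.78 in WT (log2 fold change -0.65, SE 0.09, limma adjusted p = 1.62e-06). Ubtf, whose product binds and opens the ribosomal DNA, had 10.58 and 10.51 in cKO, against 10.90 and 10.99 in WT (-0.40, SE 0.05, limma adjusted p = 2.21e-07). Taf1d, a subunit of the promoter-selectivity factor, had 8.13 and 7.94 in cKO, against 8.41 and 8.64 in WT (-0.48, SE 0.10, limma adjusted p = 4.60e-04). For each of these 3 genes both cKO libraries were below both WT libraries. Polr1e, a subunit specific to RNA polymerase I, fell by 0.37 (SE 0.09, limma adjusted p = 1.63e-03).

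Of the other subunits among the 60 genes, Polr1b and Polr1d did not pass and Polr1c rose. Polr1b, the second-largest subunit, had log2 levels of 8.94 and 8.80 in cKO, against 8.95 and 8.97 in WT (log2 fold change -0.09, limma adjusted p = 0.412). Polr1c and Polr1d encode a pair of subunits that RNA polymerase I shares with RNA polymerase III. Polr1c had 9.69 and 9.64 in cKO, against 9.53 and 9.45 in WT, and rose (0.18, SE 0.06, limma adjusted p = 0.0302). Polr1d had 9.07 and 9.28 in cKO, against 9.15 and 9.09 in WT, with overlapping groups (0.06, limma adjusted p = 0.633). Rrn3, which joins the polymerase to its promoter factors, had a log2 fold change of -0.08 (limma adjusted p = 0.186), and passed as lower under quantile normalization (-0.14, limma adjusted p = 0.0208). The difference between the log2 levels of Polr1a and Polr1c was -1.62 and -1.48 in the cKO libraries and -0.78 and -0.66 in the WT libraries. The rise of Polr1c was small and was lost without WT replicate 2 (limma adjusted p = 0.252) and without cKO replicate 1 (limma adjusted p = 0.102), with a range of 0.00277 to 0.252 over the alternatives.

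The box C/D snoRNP core, which methylates ribosomal RNA, was uneven. Nop56, a scaffold protein of the particle, had log2 levels of 11.69 and 11.70 in cKO, against 12.45 and 12.42 in WT (log2 fold change -0.74, SE 0.03, limma adjusted p = 2.83e-15), a 1.67-fold lower level in cKO. Nop58, its partner scaffold, had 11.40 and 11.41 in cKO, against 12.00 and 11.98 in WT (-0.59, SE 0.03, limma adjusted p = 9.10e-13). Fbl, which encodes the methyltransferase fibrillarin, had 9.39 and 9.36 in cKO, against 9.48 and 9.34 in WT, with overlapping groups (-0.03, SE 0.07, limma adjusted p = 0.760). Per kilobase of exon, the log2 level of Nop56 exceeded that of Fbl by 2.34 and 2.38 in cKO and by 3.01 and 3.12 in WT. Fbl and Nop56 each have near-identical transcripts elsewhere in GENCODE M21 (at least 95% identity over at least 300 bases), 2 for Fbl and 4 for Nop56, and reads could be split or lost among them. Whether this set the level of Fbl was not tested.

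**Figure D4:**
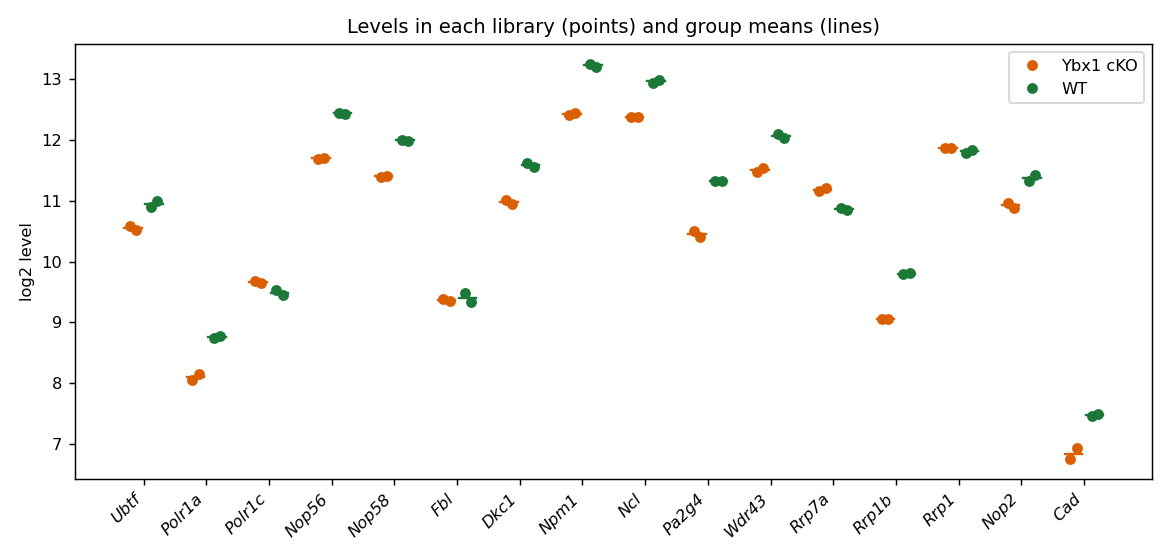
Log2 level of 16 of the genes in each cKO library (orange, left) and each WT library (green, right), with lines at the group means. The groups are apart for Nop56 and Nop58 and overlap for Fbl, and Polr1c and Rrp7a are the genes shown that passed the test as higher in cKO.

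The box H/ACA snoRNP core, which converts uridines of ribosomal RNA to pseudouridine, fell in 3 of its 4 genes. Dkc1, the pseudouridine synthase dyskerin, had log2 levels of 11.01 and 10.95 in cKO, against 11.62 and 11.55 in WT (log2 fold change -0.61, SE 0.04, limma adjusted p = 1.08e-11). Nhp2, an RNA-binding subunit, had 11.27 and 11.20 in cKO, against 11.63 and 11.57 in WT (-0.36, SE 0.04, limma adjusted p = 5.30e-08). Nop10, the smallest subunit, had 10.07 and 10 in cKO, against 10.37 and 10.36 in WT (-0.33, SE 0.05, limma adjusted p = 1.41e-05). All 3 had groups that did not overlap. Gar1, the remaining subunit, had the lowest mean level of the 60 genes, with 5.54 and 5.68 in cKO, against 5.96 and 5.97 in WT. Its log2 fold change of -0.36 was as large as that of Nhp2, but its SE was 0.22 and it did not pass (limma adjusted p = 0.217).

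The abundant nucleolar proteins with several roles had the lowest median of the 7 roles. All 5 fell (median -0.80 on the log2 scale), and all 5 also passed without the trend in the prior variance. Npm1, which encodes the nucleolar chaperone nucleophosmin, had log2 levels of 12.42 and 12.44 in cKO, against 13.25 and 13.20 in WT (log2 fold change -0.80, SE 0.03, limma adjusted p = 4.08e-17). Ncl, which encodes nucleolin, had 12.37 and 12.37 in cKO, against 12.93 and 12.99 in WT (-0.59, SE 0.03, limma adjusted p = 3.37e-14). Pa2g4, which encodes a growth-regulated protein that binds ribosomes, had 10.50 and 10.41 in cKO, against 11.32 and 11.33 in WT (-0.87, SE 0.04, limma adjusted p = 6.31e-14). The replicates of each group were closer to each other than the groups were for these 3 genes. Nolc1, a chaperone of snoRNPs in the nucleolus and Cajal bodies, fell by 0.86 (SE 0.05), and Mybbp1a, a nucleolar partner of several transcription factors, fell by 0.63 (SE 0.04). Near-identical processed pseudogenes were found for Npm1, and 3 of them (Gm14681, Gm6477 and Gm9118) had rows, with log2 levels of at most 2.40 in any library.

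Genes of small subunit processing were mixed. Of 18 genes 10 fell, 2 rose and 6 did not pass, with a median log2 fold change of -0.23. Wdr43, a protein of the complex that loads first on the precursor, had log2 levels of 11.47 and 11.54 in cKO, against 12.10 and 12.02 in WT (log2 fold change -0.56, SE 0.04, limma adjusted p = 9.33e-12). Wdr75, of the same complex, had 9.17 and 9.29 in cKO, against 9.73 and 9.85 in WT (-0.56, SE 0.07, limma adjusted p = 2.41e-07), and Utp15, also of that complex, fell by 0.30. Heatr1, another member of it, had 7.15 and 7.02 in cKO, against 7.16 and 6.94 in WT, with overlapping groups (0.04, SE 0.14, limma adjusted p = 0.886). Of the others that fell, Nop14 and its partner Noc4l had log2 fold changes of -0.47 and -0.24. Rrp9, a protein of the guide snoRNP for the early cuts, had -0.36, and Bysl, which acts late on the small subunit, had -0.30. Rrp12, with a role in export, had -0.22 and Ltv1, a factor bound to late small subunit precursors, had -0.20.

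Several calls among these genes did not hold when a library was left out. Utp20, a large scaffold protein with the lowest level per kilobase of the 60, fell by 0.51 (SE 0.19, limma adjusted p = 0.0397), but its call was lost without WT replicate 1 (limma adjusted p = 0.102), without WT replicate 2 (0.217) and without cKO replicate 2 (0.177). The call of Ltv1 (limma adjusted p = 0.0131) was lost without WT replicate 1 (0.0787), without WT replicate 2 (0.0585) and without cKO replicate 1 (0.0770). That of Rrp12 (limma adjusted p = 0.0102) was lost without WT replicate 1 (0.131). Over the alternatives the adjusted p ranged from 0.00766 to 0.217 for Utp20, from 0.00421 to 0.154 for Ltv1 and from 0.00562 to 0.131 for Rrp12.

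Rrp7a and Tsr1 were the genes of small subunit processing that rose. Rrp7a, a component of the early small subunit precursor, had log2 levels of 11.15 and 11.21 in cKO, against 10.88 and 10.86 in WT (log2 fold change 0.32, SE 0.04, limma adjusted p = 1.08e-06). Its exons overlap 678 bases of the opposite-strand gene Serhl, which had a log2 fold change of 0.22 (limma adjusted p = 0.349) at levels of 6.89 and 6.58 in cKO, against 6.40 and 6.62 in WT. Tsr1, which binds late small subunit precursors, had 9.65 and 9.66 in cKO, against 9.46 and 9.39 in WT (0.23, SE 0.06, limma adjusted p = 5.10e-03). Its exons overlap 1240 bases of the opposite-strand gene Srr, which rose (0.47, SE 0.15, limma adjusted p = 0.0126), with levels of 7.30 and 7.29 in cKO, against 6.68 and 6.96 in WT. Whether the counting used strand is not stated in the labels, and the part of Srr in the rise of Tsr1 was not tested. Tsr1 lost its call without WT replicate 2 (limma adjusted p = 0.0787), with a range of 0.000322 to 0.118 over the alternatives.

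The 6 genes of this role that did not pass had small or noisy differences. Imp3 and Imp4 encode partners in an early complex on the precursor. Imp3 had a log2 fold change of -0.25 (limma adjusted p = 0.0915), and Imp4 had 0.05 (0.352). Utp3 had -0.04, Utp6 -0.01 and Heatr1, described above, 0.04. Utp18 had the highest log2 fold change of all 60 genes, 0.37, with levels of 6.51 and 6.77 in cKO, against 6.27 and 6.26 in WT, but with an SE of 0.18 it did not pass (limma adjusted p = 0.107). Without cKO replicate 1, Utp18 passed as higher (limma adjusted p = 0.0399) and Imp3 as lower (0.0153), with ranges of 0.0399 to 0.395 and 0.0153 to 0.443 over the alternatives.

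Genes of large subunit assembly mostly fell. Of 20 genes 14 fell and 6 did not pass, with a median log2 fold change of -0.32. Rrp1b, a nucleolar protein, had log2 levels of 9.06 and 9.06 in cKO, against 9.80 and 9.81 in WT (log2 fold change -0.74, SE 0.06, limma adjusted p = 9.88e-10). Nop2, a cytosine methyltransferase of large subunit ribosomal RNA whose promoter is shown above, had 10.96 and 10.89 in cKO, against 11.33 and 11.42 in WT (-0.45, SE 0.04, limma adjusted p = 5.70e-09). Ebna1bp2 had 10.49 and 10.44 in cKO, against 10.88 and 10.93 in WT (-0.44, SE 0.05, limma adjusted p = 2.91e-08). In each of these the groups were apart by several times the distance between replicates.

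The other falls in this role ranged from -0.69 to -0.16 on the log2 scale. Rrp15 fell by 0.69, Rrp8, a nucleolar methyltransferase, by 0.68 and Noc3l by 0.60. Rrs1, which helps bring in an early ribosomal protein and RNA particle, fell by 0.45, Mrto4 by 0.43, Ppan by 0.42 and the nucleolar GTPase gene Gnl3 (nucleostemin) by 0.42. Nip7 fell by 0.22 (limma adjusted p = 0.00246) and Wdr74 by 0.16 (0.0116). Nip7 lost its call without WT replicate 1 (limma adjusted p = 0.0804) and Wdr74 without WT replicate 2 (0.267), with ranges over the alternatives of 0.000185 to 0.165 and 0.00181 to 0.267.

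Related proteins did not all move alike, and subunits of a single complex did not all pass the test. Pes1, Bop1 and Wdr12 form a stable trimer needed to process large subunit RNA. For each of them both cKO libraries lay below both WT libraries, and differences in fold change among them were not tested. Bop1 fell by 0.22 (SE 0.06) and Wdr12 by 0.20 (SE 0.04), whereas Pes1 had log2 levels of 10.71 and 10.78 in cKO, against 10.80 and 10.86 in WT, and did not pass (log2 fold change -0.08, limma adjusted p = 0.167) except under quantile normalization (-0.15, limma adjusted p = 0.0108). Gnl2, a GTPase related to Gnl3, had 11.83 and 11.83 in cKO, against 11.78 and 11.76 in WT (0.06, limma adjusted p = 0.177). Rrp1, the close relative of Rrp1b, had 11.86 and 11.87 in cKO, against 11.79 and 11.83 in WT (0.05, limma adjusted p = 0.232). The log2 fold changes of the remaining genes that did not pass were 0.08 for Nop16, -0.06 for Brix1 and 0.11 for Noc2l. The sign of Nop16, Rrp1, Gnl2 and of Imp4 depended on the scaling: under quantile normalization they were -0.02, -0.06, -0.05 and -0.05, and after a median shift of the libraries all 4 passed as higher (0.15, 0.12, 0.12 and 0.11). Brix1 passed as lower under quantile normalization (-0.17) and without cKO replicate 1 (-0.10, limma adjusted p = 0.0199), and turned to 0.01 after the median shift.

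Both enzymes of nucleotide supply fell. Dctpp1, which breaks down deoxycytidine triphosphate and its modified forms, had log2 levels of 7.09 and 7.64 in cKO, against 8.34 and 8.21 in WT, the largest fall of the 60 genes (log2 fold change -0.91, SE 0.14, limma adjusted p = 6.62e-06). Without a filter on low values its adjusted p was 0.0512, and Taf1d (0.0624) and Bysl (0.112) lost their calls too. Cad, which encodes the enzyme of the first steps of pyrimidine synthesis, had 6.76 and 6.94 in cKO, against 7.46 and 7.50 in WT (-0.63, SE 0.14, limma adjusted p = 6.41e-04). The cKO replicates of Dctpp1 stood apart by more than those of any other of the 60 genes (SD 0.39), but both stayed below the WT libraries.

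Other genes of ribosome synthesis moved the same way, by less. Of 165 further genes with a row, listed by role, 78 fell and 17 rose (47.3% and 10.3%), with a median log2 fold change of -0.17. Without the trend in the prior variance 16 of the 165 fell and 3 rose, beside 7.02% of all tested genes that fell and 7.58% that rose. Falls were counted for 7 of 10 snoRNP assembly genes, 21 of 42 small subunit genes, 22 of 45 large subunit genes and 13 of 26 genes of the RNA exosome and RNase MRP. They were counted for 5 of 13 further RNA polymerase I genes, 8 of 22 RNA polymerase III genes and 2 of 7 subunits specific to RNA polymerase II, which were added for comparison. These counts stand beside the 17.8% of all tested genes that fell. Among tested genes with a mean log2 level of at least 5.79, 26.8% fell. The share was 28.6% for the RNA polymerase II subunits, near that value. It was 36.4% for the RNA polymerase III genes and 38.5% for the further RNA polymerase I genes. The floor of 5.79 was not matched to the levels of these lists.

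Named by the smallest p-values of each list, the falls included several direct partners of the 60 genes. Tcof1, which encodes the treacle protein that works with UBTF, fell by 0.60 (SE 0.05), Twistnb, a subunit of RNA polymerase I, by 0.37 (SE 0.07), and Polr3k, a subunit specific to RNA polymerase III, by 0.78 (SE 0.05). The small subunit genes Wdr36, Bms1 and Nol6 fell by 0.48, 0.56 and 0.58, and the large subunit gene Ddx21, a nucleolar helicase, fell by 0.82 (SE 0.07). The exosome genes Exosc8, Exosc10 and the catalytic Dis3 fell by 0.95, 0.30 and 0.75. The snoRNP assembly ATPase genes Ruvbl1 and Ruvbl2 fell by 0.46 and 0.45. In the list of RNA polymerase II subunits Polr2b fell by 0.30 and Polr2c by 0.15, and Polr2c lost its call without WT replicate 1 (limma adjusted p = 0.240), without WT replicate 2 (0.0642) and without cKO replicate 1 (0.0951), with a range of 0.0071 to 0.240 over the alternatives.

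The 17 rises outside the 60 genes were spread over all 7 lists, and 5 of them were among the 45 large subunit genes (11.1%, beside 19.5% of all tested genes). Sbds, the Shwachman-Bodian-Diamond protein that frees the large subunit for translation, had log2 levels of 11.91 and 11.92 in cKO, against 11.20 and 11.23 in WT (log2 fold change 0.69, SE 0.04, limma adjusted p = 9.79e-14). Gnl3l, a relative of Gnl3, had 10.56 and 10.62 in cKO, against 9.96 and 9.96 in WT (0.63, SE 0.05, limma adjusted p = 3.45e-10). Both rose while Gnl3 fell by 0.42. Wdr18 rose by 0.37, Mdn1, a giant ATPase that remodels large subunit precursors, by 0.33 and Pak1ip1 by 0.24. Maf1, the repressor of RNA polymerase III, rose by 0.44 (SE 0.05, limma adjusted p = 2.30e-08), and Polr3gl by 0.26. Znhit3 rose by 0.55, Trmt112 by 0.33, Utp23 by 0.29 and Bud23 by 0.16, and the polymerase subunits Polr2g and Polr2e by 0.34 and 0.22. Among exosome and RNase MRP genes Exosc1 rose by 0.23, Exosc5 by 0.12, Exosc4 by 0.15 and Rpp21 by 0.27. The calls of Bud23, Exosc5, Exosc4 and Rpp21 were lost without at least 1 of the libraries, with adjusted p of up to 0.119 (without WT replicate 1), 0.149, 0.195 and 0.448, and those of Exosc5, Exosc4 and Bud23 also under quantile normalization (0.674, 0.126 and 0.0822). Exosc5 and Rpp21 were lost without WT replicate 2 and, in turn, without cKO replicate 1 (0.120) and cKO replicate 2 (0.448). Exosc4 was lost without WT replicate 2 and without cKO replicate 2 (0.119).

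Of the 60 genes 9 carry annotated snoRNA genes on the same strand within their own span: Taf1d, Nop56, Nop58, Dkc1, Ncl, Wdr43, Tsr1, Ppan and Gnl3. The largest number was 8, in Taf1d, on chromosome 9 from 15306214 to 15316991 in GRCm38. Nop56, on chromosome 2 from 130274430 to 130279313, held 5 and Nop58, on chromosome 1 from 59684971 to 59719044, held 4. Of these 9 genes 8 fell and 1, Tsr1, rose, with a median log2 fold change of -0.56. Of the 51 others 32 fell and 2 rose, with a median of -0.30. Polyadenylated RNA was sequenced, so these values describe the host messages and not the snoRNAs.

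Shared sequence touched a minority of the genes. A near-identical transcript of another gene was found for 10 of the 60, of which 5 fell and 1 rose (median log2 fold change -0.23), and of the 50 without one 35 fell and 2 rose (median -0.36). Exons of 22 genes overlapped those of a gene on the opposite strand, and 15 of these fell and 2 rose (median -0.36). Of the 38 without such an overlap 25 fell and 1 rose (median -0.34).

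Markers of cell type and of cell division also differed between the groups, and in bulk RNA fewer cells of a type and less RNA per cell cannot be told apart. All 10 listed genes of dividing cells fell (median -1.20 on the log2 scale), with summed back-transformed levels of 5626 to 5637 in cKO and 12246 to 12666 in WT. Of 14 mature neutrophil markers 5 had a row and all 5 rose (summed levels 13898 to 14038 in cKO and 4008 to 4244 in WT). Of 10 monocyte and macrophage markers 8 had a row, of which 6 rose and 1 fell (128971 to 129675 in cKO and 75202 to 75808 in WT). Such sums follow the most abundant genes. In the monocyte and macrophage sum these were Adgre1, which rose by 0.09, and Lyz2, which rose by 2.25, whereas Mpeg1 fell by 0.39. Of 12 stem and progenitor markers 7 had a row, of which 3 fell (4594 to 4672 in cKO and 6350 to 6450 in WT). Kit and Cd34, which define early progenitors, were not analysed here. The part of these shifts in the falls of the 60 genes was not tested.

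Markers of other lineages were few. Of 10 erythroid markers 3 had a row, of which 2 fell (summed levels 1055 to 1171 in cKO and 1362 to 1380 in WT), and of 10 T and NK cell markers 2 had a row and both fell (723 to 773 in cKO and 1516 to 1519 in WT). The only B cell marker of 8 with a row, Cd79b, rose (292 to 320 in cKO and 245 to 264 in WT). Of 8 megakaryocyte and platelet markers 7 had a row, of which 2 rose and 2 fell (8196 to 8427 in cKO and 5394 to 5593 in WT).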

How the data were processed

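The authors deposited 1 score per gene symbol and library on a log scale, from -3.19 to 27.9. The submitters' processing notes name GRCm38 and list DESeq2, featureCounts, HISAT2 2.1.0 and CASAVA, but no order or transformation. The labels' protocols name Trizol extraction and oligo dT selection. Columns were matched to samples by title, and 0 columns were left out. Read as log2 divided by ln(2), the noise between replicates was 1.31 times Poisson noise in cKO and 1.10 times in WT (median over level bins, treating levels as reads). As plain log2 it was 5.94 and 4.85 times. Scores were therefore multiplied by 0.693.

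limma 3.58.1 in R 4.3.3 (lmFit, then eBayes whose prior follows the level) was run on the 15527 genes that reached a score of 1 in 2 or more libraries. Tests were two-sided, p-values were adjusted by Benjamini-Hochberg, and the threshold was 0.05. The planned design already assumed log-scale values. All 60 genes passed the filter. Alternatives were other filters, prior variances, scalings, thresholds, a replicate block and leaving out each library. Ranges of adjusted p over the alternatives include the block fit and the fits without a library. Their low ends can therefore rest on the prior variance.

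The members and all lists were chosen with earlier results of these data known. Within each role the 3 genes with the smallest p-values, every gene that rose and every gene that did not pass are named, as are up to 3 called genes and all rises of each other list. Some further values and the promoters shown were chosen after values were seen. Positions, exon lengths, overlaps and snoRNA genes come from GENCODE M21 on GRCm38 (all 60 genes found by symbol), near-identical transcripts from minimap2 2.31-r1302, and promoters from RefSeq (GRCm38.p6). Plots were drawn with matplotlib 3.10.9, and tables were handled in pandas 2.3.3 (Python 3.11.15).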

Additional observations from a re-analysis of the deposited data

How the results depend on the processing

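All alternatives were listed with earlier results known. The same 40 falls and 3 rises among the 60 genes were called under a robust prior variance and a filter at a score of 3. They were also called under the replicate block, which left 1 residual degree of freedom against 2 and so leans more on the prior variance. The plain log2 reading rescales all values alike, so it could not change a call. The block used the replicate numbers of the labels, which nothing says are pairs: the correlation of the deviations of same-numbered libraries was 0.01, and the paired fit called 6026 genes in all (3138 higher, 2888 lower), against 5803.

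Without the trend in the prior variance 2267 genes were called (1177 higher, 1090 lower). Of the 60 genes 17 fell and 0 rose, and 16 other pathway genes fell in place of 78. A median shift left 36 falls and 7 rises and a median log2 fold change of -0.29 in place of -0.36, and the plain log2 reading gave -0.52. Without any filter 33 fell and 2 rose, and under quantile normalization 42 fell and 2 rose. The cause of these moves was not tested. Leaving out each library in turn gave median log2 fold changes of the 60 genes between -0.36 and -0.34. Each of those fits left a single library in a group. Its p-values therefore lean on the prior variance and say little about replication.

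Signs turned only for genes that did not pass. Under quantile normalization the log2 fold change was -0.019 for Nop16, -0.064 for Rrp1, -0.054 for Gnl2 and -0.049 for Imp4. After the median shift it was 0.029 for Fbl, 0.019 for Utp3, 0.053 for Utp6 and 0.0073 for Brix1. With each library left out in turn it ranged from -0.104 to 0.038 for Fbl, from -0.140 to 0.054 for Utp3, from -0.054 to 0.036 for Utp6, from -0.047 to 0.157 for Polr1d and from -0.073 to 0.144 for Heatr1. Depth is unknown, so no limit from counting can be given, and genes at low levels such as Gar1, Utp18 and Utp20 had the largest SEs of the 60.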

Other observations

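Related genes of the list differed from each other in how far they moved. These pairs were picked after their values were seen and carry no test. The log2 level of Rrp1b minus that of Rrp1 was -2.80 and -2.81 in the cKO libraries and -1.99 and -2.02 in the WT libraries, so the difference widened by 0.80. The log2 level of Gnl3 minus that of Gnl2 was -2.39 and -2.31 in the cKO libraries and -1.87 and -1.87 in the WT libraries. The log2 level of Wdr43 minus that of Heatr1, partners in 1 complex, was 4.31 and 4.52 in the cKO libraries and 4.93 and 5.08 in the WT libraries. The log2 level of Nop56 minus that of Nop58 moved less, with 0.29 and 0.30 in the cKO libraries and 0.45 and 0.44 in the WT libraries.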
